A study of Mus musculus with 6 samples.

Results

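The Hox genes encode homeodomain transcription factors that give embryonic cells their position along the head-to-tail axis and along the limbs. The 38 genes described here were found by their names, a rule that uses no measured values. Earlier results of these data were known when the set was chosen, and a further gene that the names match is not reported here. The 38 genes were carried by 39 of the 23346 probe sets, and the arrays held 20723 gene symbols in all. There were 10 genes of the Hoxa cluster, 10 of Hoxb, 9 of Hoxc and 9 of Hoxd, and the second probe set belonged to Hoxa3. For that gene the probe set with the higher mean level was used.

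The cells were mouse embryonic fibroblasts (MEF), lines of connective tissue cells from Ola129 embryos. Each was measured on an Affymetrix whole-transcript array, and each probe set had a log2 level on each array. The 6 arrays formed 4 groups. Ezh2 -/- and Ezh2 fx/fx cells that lacked the Ink4a/Arf locus (Ink4a/Arf-/-) had 2 arrays each, and Ezh2 -/- and Ezh2 fx/fx cells with that locus (Ink4a/Arf+/+) had 1 array each. All groups were kept in serum and leukemia inhibitory factor and were collected while growing exponentially, per the labels. The labels do not say what removed Ezh2 in the -/- cells, and the text that describes the series speaks of transfection with esiRNA against Ezh2. The grouping used here follows the titles, in which "fx/fx" stands as labelled. Ink4a/Arf, the gene Cdkn2a, makes 2 proteins that stop the cell cycle through the Rb and p53 pathways. Nothing in the labels says that arrays of a group came from separate cultures, so p-values measure only the spread between these samples. In bulk RNA, fewer cells that express a gene and less RNA per cell cannot be told apart.

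Hox genes lie in 4 clusters, and genes at the same place in different clusters form 13 paralog groups. Low-numbered groups act in the hindbrain and neck and high-numbered groups in the trunk, tail and limb ends. Ezh2 is the catalytic subunit of Polycomb repressive complex 2, which methylates lysine 27 of histone H3. Silent Hox genes are among the best known carriers of that mark, and fibroblasts keep a Hox pattern that reflects where in the body they came from.

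Ezh2 itself read 10.62 and 10.51 on the Ezh2 -/- arrays of Ink4a/Arf-/- cells, against 10.92 and 10.91 on the fx/fx arrays. In Ink4a/Arf+/+ cells it read 10.12 in Ezh2 -/- cells, against 10.48 in fx/fx cells. The probe set was lower in both backgrounds but far from absent, and where its probes lie relative to the deleted part is not given, so it checks no label. Cdkn2a read 8.11 and 8.20 on the Ezh2 -/- arrays of Ink4a/Arf-/- cells, against 8.29 and 8.18 on the fx/fx arrays, and in Ink4a/Arf+/+ cells 8.62 in Ezh2 -/- cells, against 7.91 in fx/fx cells. Its probe set likewise checks no label. The median level of an array was 8.25 to 8.32 in Ink4a/Arf-/- cells and 7.50 to 7.51 in Ink4a/Arf+/+ cells, whose values stand in separate tables, and a level is never set against one of the other table. Fibroblast markers were high on every array, with a mean over 10 genes between 12.54 and 12.58 in Ink4a/Arf-/- cells and of 12.25 (Ezh2 -/-) and 12.53 (fx/fx) in Ink4a/Arf+/+ cells. The means of the epithelial, endothelial, blood, neural, skeletal muscle and embryonic stem cell lists lay between 6.62 and 8.34 and between 5.79 and 6.88 in the same tables. Single members stood higher. In Ink4a/Arf-/- cells Des of the muscle list read 9.91 to 10.16 and Krt19 of the epithelial list 9.59 to 9.90. The array of fx/fx replicate 1 in Ink4a/Arf-/- cells stood apart: over all probe sets its median difference from fx/fx replicate 2 was 0.084. It carried a loading of 0.84 on the first principal component of the 4 arrays, which held 46.2% of their variance, and the other 3 arrays had loadings between -0.42 and -0.098.

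The first question was whether Hox transcripts differed with loss of Ezh2 in cells without Ink4a/Arf. No Hox gene passed the test in these cells. Most read slightly lower on the Ezh2 -/- arrays, with log2 differences (Ezh2 -/- minus fx/fx) between -0.21 and 0.032 and a median of -0.072. Limma called 0 of the 38 genes and 0 of all 23346 probe sets (0% called) at a Benjamini-Hochberg adjusted p below 0.05. At an unadjusted p below 0.05 it marked 1 Hox gene, Hoxc10, which was lower, beside 4.12% of all probe sets that were lower and 6.93% in either direction. That count rose or fell with the array left out. Without fx/fx replicate 2 the Hox median was -0.11, beside -0.071 over all probe sets, of which 71.2% were lower. Without fx/fx replicate 1 the Hox median was -0.049, beside 0.017 over all probe sets, of which 44.1% were lower.

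Of the 38 genes, 33 were lower on average, beside 60.9% of all probe sets, whose median difference was -0.027. In 14 genes both Ezh2 -/- arrays read below both fx/fx arrays, beside 23.6% of all probe sets. In 0 genes both read above, beside 13% of all probe sets. The number lower was 25 without fx/fx replicate 1, beside 44.1% of all probe sets, and 24 without Ezh2 -/- replicate 2. It was 30 after quantile normalization, where 50.7% of all probe sets were lower, and also after subtraction of array medians. The median over the Hox genes was 0.094 between the fx/fx replicates, beside 0.084 over all probe sets. Between the Ezh2 -/- replicates it was 0.037, beside 0.018. In size the first exceeded the Hox median of -0.072 between the genotypes, and the second did not. None of the 95% intervals of single genes reached above 0.35, a 1.27-fold rise, or below -0.46.

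The 8 genes with the largest differences in these cells were all lower and all in the Hoxb, Hoxc and Hoxd clusters. That holds only for this cut. Hoxa2, at -0.1494 and with no overlap of the genotypes, came just behind Hoxc9, the last of the 8, at -0.1496. Hoxc11, a posterior gene of the sacral and limb program, read 7.28 and 7.04 on the Ezh2 -/- arrays, against 7.34 and 7.39 on the fx/fx arrays, a difference of -0.21 ± 0.10 (SE, n = 2 per genotype; limma, adjusted p = 0.75). Hoxb6, a trunk gene, read 8.10 and 8.14 on the Ezh2 -/- arrays, against 8.40 and 8.23 on the fx/fx arrays. In Hoxc11 and Hoxb6 the genotypes did not overlap, and in neither did the difference pass the test.

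Hoxc10, of the lumbar group that suppresses ribs, read 8.55 and 8.45 on the Ezh2 -/- arrays, against 8.71 and 8.68 on the fx/fx arrays, a difference of -0.20 ± 0.08 (SE; limma, adjusted p = 0.720). Hoxb9, which acts with its paralogs in the mammary gland, read 10.42 and 10.48 on the Ezh2 -/- arrays, against 10.68 and 10.57 on the fx/fx arrays. Hoxc5, a gene of the neck and upper trunk, read 9.91 and 9.93 on the Ezh2 -/- arrays, against 10.06 and 10.08 on the fx/fx arrays. In these 3 genes the genotypes did not overlap. Hoxd12 read 8.43 and 8.34 on the Ezh2 -/- arrays, against 8.65 and 8.47 on the fx/fx arrays, and also did not overlap.

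Hoxb1, a marker of the fourth rhombomere of the hindbrain, read 8.03 and 8.15 on the Ezh2 -/- arrays, against 8.36 and 8.14 on the fx/fx arrays. Hoxc9, a thoracic gene, read 9.24 and 8.94 on the Ezh2 -/- arrays, against 9.31 and 9.17 on the fx/fx arrays. In both genes the genotypes overlapped, and for Hoxc9 the difference turned from -0.15 to 0.0026 when Ezh2 -/- replicate 2 was left out.

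The genes with the smallest differences were Hoxa4 at -0.0013, Hoxb2 at -0.024, Hoxc13 at 0.019 and Hoxd4 at -0.011, the lowest in size of each cluster. Hoxa4 read 8.97 and 8.97 on the Ezh2 -/- arrays, against 9.03 and 8.92 on the fx/fx arrays. Hoxc13, a gene of hair and nail formation, read 7.41 and 7.15 on the Ezh2 -/- arrays, against 7.39 and 7.13 on the fx/fx arrays. Hoxb2, a hindbrain gene, read 9.29 and 9.22 on the Ezh2 -/- arrays, against 9.36 and 9.19 on the fx/fx arrays. In these 3 genes the replicates differed by more than the genotypes. Hoxd4 read 7.15 and 7.28 on the Ezh2 -/- arrays, against 7.26 and 7.18 on the fx/fx arrays, and also overlapped. By cluster the medians were -0.071 for Hoxa, -0.085 for Hoxb, -0.12 for Hoxc and -0.033 for Hoxd. By paralog number they were -0.024 for groups 1 to 4, -0.090 for groups 5 to 8 and -0.072 for groups 9 to 13.

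The second question was the same for cells with an intact Ink4a/Arf locus. There 36 of the 38 genes were higher on the Ezh2 -/- array, with a median log2 difference of 0.50, beside 50.1% of all probe sets higher and a median of 0.000715. Genes past 2-fold were counted, and no test was run within this background, where 1 array per genotype gives no replicate check. In 9 genes the Ezh2 -/- array was at least 2-fold higher, beside 0.797% of all probe sets, and in 0 genes at least 2-fold lower, beside 0.313%. In 15 genes it was at least 1.5-fold higher, beside 2.64% of all probe sets. Hoxa2 at -0.27 and the neighbouring Hoxa3 at -0.15 were lower, and after quantile normalization so was Hoxd3 at -0.016.

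**Figure D1:**
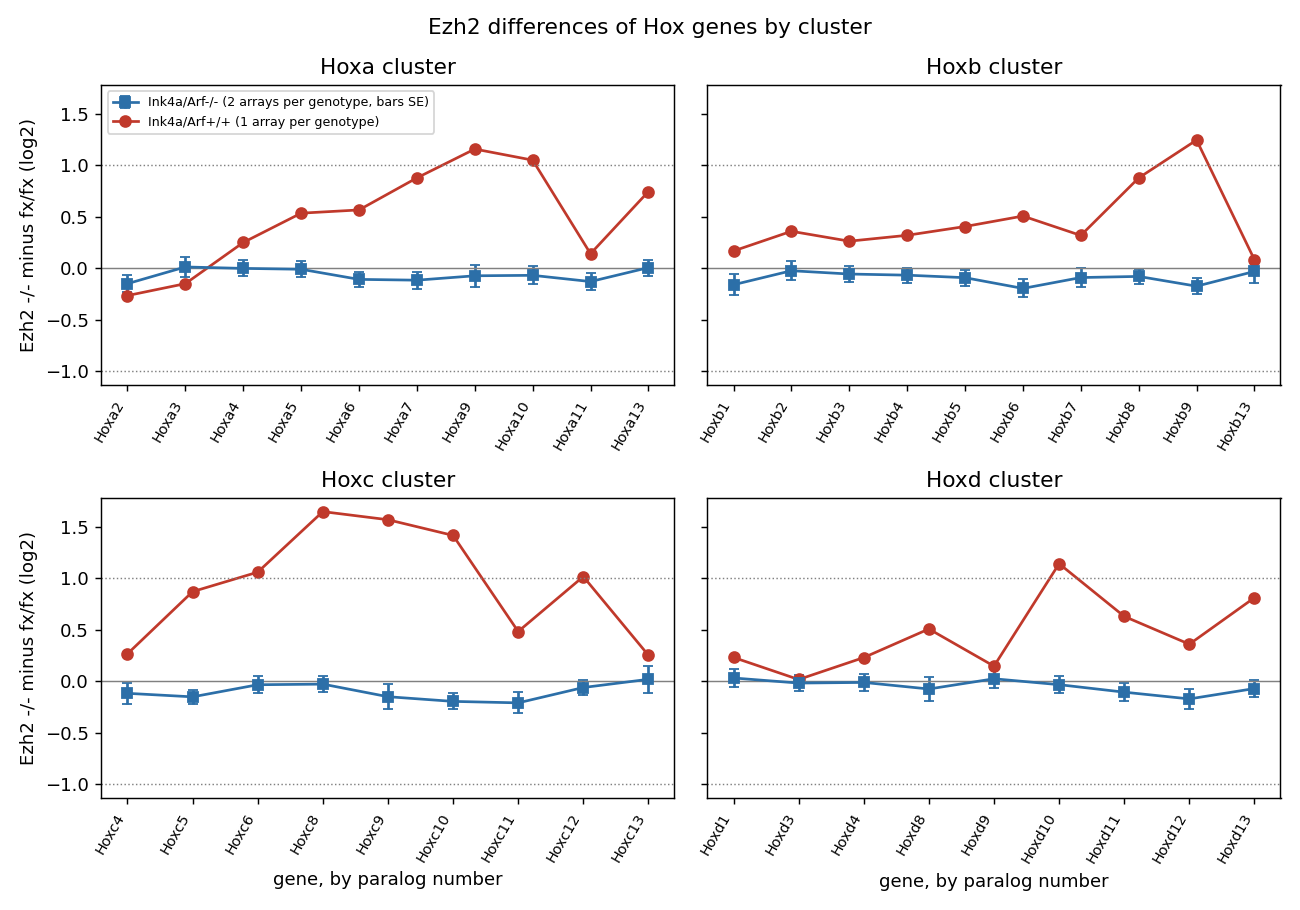
Log2 difference, Ezh2 -/- minus fx/fx, of each Hox gene, with genes ordered by paralog number in a panel for each cluster. Blue squares are Ink4a/Arf-/- cells with limma's SE (2 arrays per genotype) and red circles are Ink4a/Arf+/+ cells (1 array per genotype, no error); dotted lines mark 2-fold. The blue values stay between -0.21 and 0.032, and the red values reach 1.65 in the Hoxc cluster.

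The Hoxc cluster held 5 of the 9 genes past 2-fold, and all 9 of its genes were higher, with a median of 1.02. Hoxc8, which specifies thoracic vertebrae and forelimb motor neurons, read 12.21 in Ezh2 -/- cells, against 10.57 in fx/fx cells, a 3.13-fold difference. Hoxc9 read 9.14 in Ezh2 -/- cells, against 7.57 in fx/fx cells, a 2.97-fold difference. Hoxc10 read 8.24 in Ezh2 -/- cells, against 6.82 in fx/fx cells, a 2.67-fold difference. These 3 neighbours formed the peak of the cluster, and the differences were smaller on both sides of it. On the low-numbered side Hoxc6 read 8.98 in Ezh2 -/- cells, against 7.92 in fx/fx cells, Hoxc5 read 8.91 and 8.04, and Hoxc4 read 6.94 and 6.68 in the same order. On the high-numbered side Hoxc11 differed by 0.48, Hoxc12 by 1.02 and Hoxc13 by 0.25, so Hoxc12 stood above both neighbours. Hoxc12 read 7.36 in Ezh2 -/- cells, against 6.35 in fx/fx cells, and its 2.02-fold difference fell below 2-fold after quantile normalization, where it was 0.99 on the log2 scale. Hoxc13 read 5.85 in Ezh2 -/- cells, against 5.59 in fx/fx cells, and Hoxc11, Hoxc13 and Hoxd1 were among the dimmest 30% of probe sets of this table.

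The Hoxa cluster had a median of 0.55, and 8 of its 10 genes were higher. The difference grew from the low-numbered end to Hoxa9, being 0.25 in Hoxa4, 0.53 in Hoxa5, a gene of lung development, 0.57 in Hoxa6 and 0.88 in Hoxa7. Hoxa9, which sustains blood progenitors and many leukemias, read 8.0 in Ezh2 -/- cells, against 6.84 in fx/fx cells, a 2.23-fold difference. Hoxa10, needed in the uterus, read 8.83 in Ezh2 -/- cells, against 7.78 in fx/fx cells, a 2.07-fold difference. Past these genes the cluster split, with 0.14 in Hoxa11 and 0.74 in Hoxa13, both limb genes. Hoxa11 read 6.60 in Ezh2 -/- cells, against 6.46 in fx/fx cells. At the other end Hoxa2, which patterns the second pharyngeal arch, read 8.90 in Ezh2 -/- cells, against 9.16 in fx/fx cells. The 2 probe sets of Hoxa3, a gene of thymus and parathyroid formation, gave -0.15 and -0.17, while in Ink4a/Arf-/- cells they disagreed in direction at 0.013 and -0.12.

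The Hoxb cluster was higher throughout but by less, with 10 of 10 genes higher and a median of 0.34. Hoxb9 stood out and read 10.79 in Ezh2 -/- cells, against 9.54 in fx/fx cells, a 2.37-fold difference. Hoxb8 followed at 0.88. From Hoxb1 to Hoxb7 the differences lay between 0.17 and 0.51, with Hoxb1 at 0.17, Hoxb2 at 0.36, Hoxb3 at 0.26, Hoxb4, which supports blood stem cells, at 0.32, Hoxb5 at 0.41, Hoxb6 at 0.51 and Hoxb7 at 0.32. Hoxb13, a tail and prostate gene that lies apart from the rest of its cluster, had the smallest difference at 0.083, with 6.24 in Ezh2 -/- cells, against 6.16 in fx/fx cells.

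The Hoxd cluster, best known for patterning the digits and forearm, had a median of 0.36 with 9 of 9 genes higher. Hoxd10 read 7.85 in Ezh2 -/- cells, against 6.71 in fx/fx cells, a 2.21-fold difference and the 1 past 2-fold in its cluster. Hoxd13 at 0.81 and Hoxd11 at 0.63 came next, followed by Hoxd8 at 0.51 and Hoxd12 at 0.36. Hoxd9, between Hoxd8 and Hoxd10, differed by 0.15, less than its paralogs Hoxa9, Hoxb9 and Hoxc9, with no test between them. The low-numbered genes were Hoxd1 at 0.23, Hoxd3 at 0.018 and Hoxd4 at 0.23. Hoxd3 had the smallest difference, with 6.41 in Ezh2 -/- cells, against 6.39 in fx/fx cells.

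**Figure D2:**
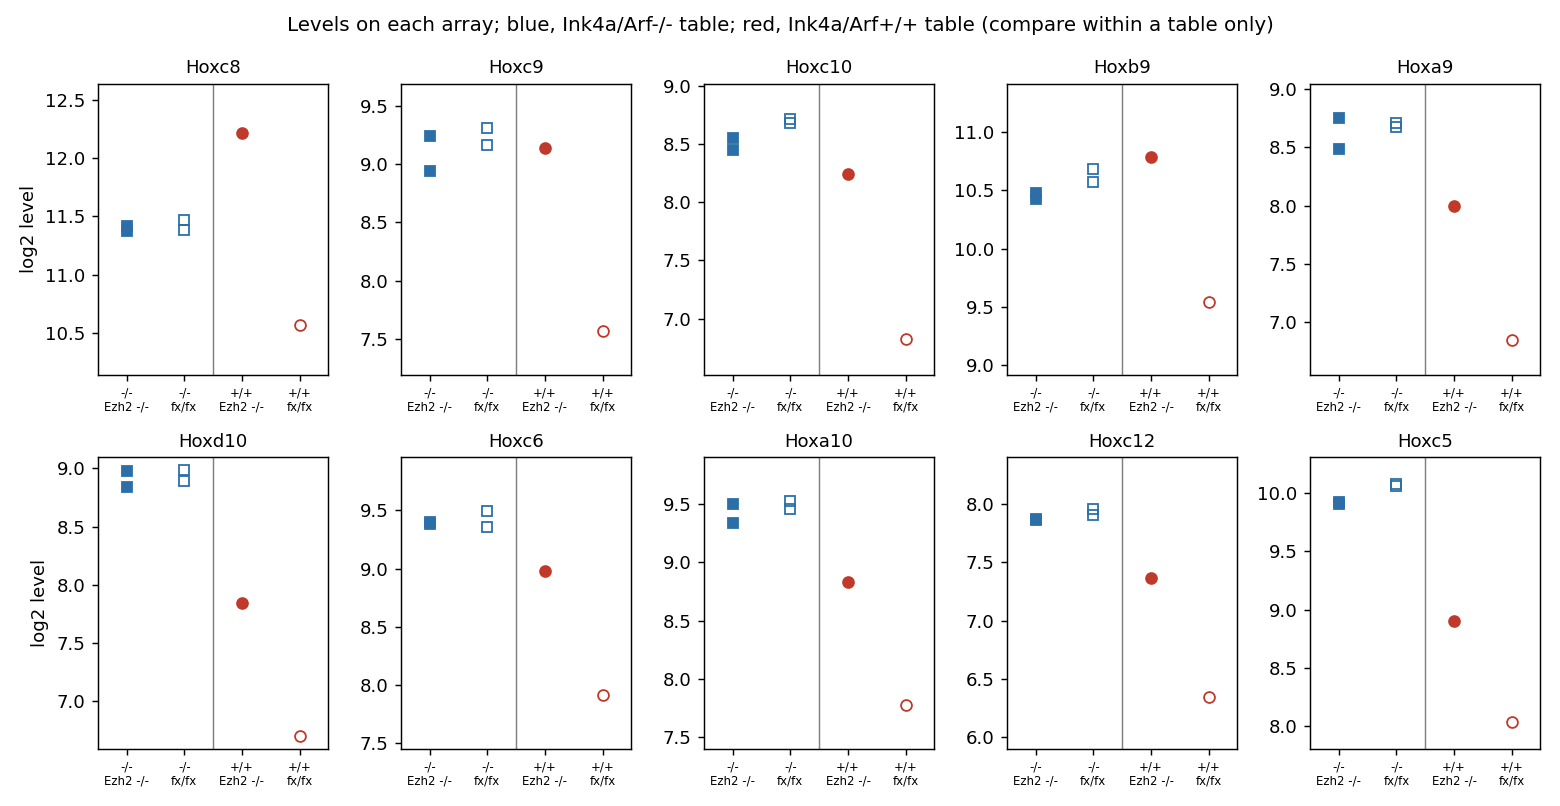
Log2 level on each array of the 8 Hox genes with the largest differences in Ink4a/Arf+/+ cells and of Hoxc12 and Hoxc5. In each panel the Ink4a/Arf-/- table is left of the line (blue, 2 arrays per genotype) and the Ink4a/Arf+/+ table right of it (red, 1 array per genotype), filled symbols are Ezh2 -/- and open symbols fx/fx, and every panel spans the same number of log2 units. The Ink4a/Arf+/+ symbols lie apart by 0.87 to 1.65 and the Ink4a/Arf-/- genotypes by at most 0.20 on average.

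Set out by paralog number, the differences in Ink4a/Arf+/+ cells were small at the low end and peaked in the middle. The median was 0.23 over the 11 genes of groups 1 to 4, 0.57 over the 11 genes of groups 5 to 8 and 0.78 over the 16 genes of groups 9 to 13. None of the 11 genes of groups 1 to 4 reached 1.5-fold. Groups 8 to 10 held 7 of the 9 genes past 2-fold, and all 3 members of group 10 were past it. In groups 11 to 13 the median was 0.48 over 9 genes. Paralogs were not alike within a group: in group 9 the values were 1.16 for Hoxa9, 1.24 for Hoxb9, 1.57 for Hoxc9 and 0.15 for Hoxd9. In group 4 they were close, with 0.25 for Hoxa4, 0.32 for Hoxb4, 0.27 for Hoxc4 and 0.23 for Hoxd4. With 1 array per genotype these orders have no error of their own.

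**Figure D3:**
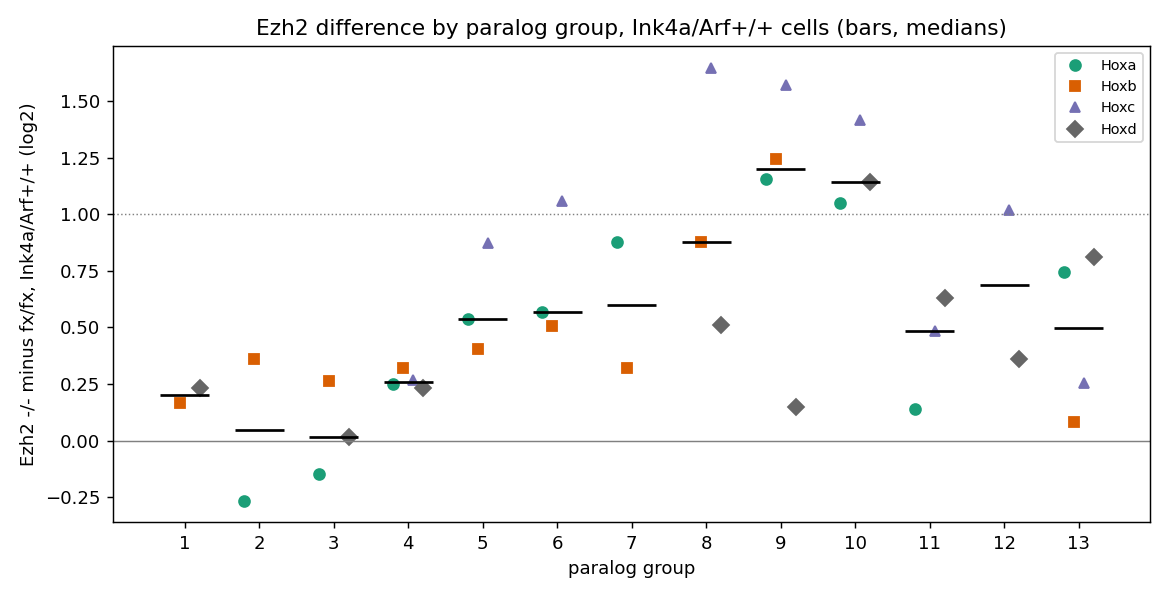
Log2 difference, Ezh2 -/- minus fx/fx, in Ink4a/Arf+/+ cells (1 array per genotype) of each Hox gene by paralog group, with a symbol for each cluster and a bar at the group median. Medians stay at or below 0.26 in groups 1 to 4, reach 1.20 in group 9 and 1.14 in group 10, and lie between 0.48 and 0.69 in groups 11 to 13; the dotted line marks 2-fold.

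Markers of the fibroblast itself also differed between these arrays. Of the 10 fibroblast markers 9 were lower in Ezh2 -/- cells with intact Ink4a/Arf, beside 11240 of all 23346 probe sets. The median of the 10 markers was -0.15. Pdgfra, a growth factor receptor, differed most, with 8.28 in Ezh2 -/- cells, against 9.69 in fx/fx cells. Pdgfrb was the 1 that was higher, at 0.44. The mean of the 10 markers was 12.25 in Ezh2 -/- cells, against 12.53 in fx/fx cells. The blood list of 5 markers averaged 6.07 in Ezh2 -/- cells, against 5.79 in fx/fx cells. Of these Hba-a1, a globin, differed most at 0.94, Ptprc, Csf1r and Emr1 by 0.12 to 0.30, and the macrophage marker Cd68 by -0.28. Among 4 skeletal muscle markers Des, the muscle filament desmin, read 7.01 in Ezh2 -/- cells, against 8.75 in fx/fx cells. The other members of that list differed far less, Myf5 by -0.092, Myod1 by -0.065 and Myog by 0.14. The part of these differences in the Hox values was not tested.

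The third question was whether the difference with Ezh2 itself differed between the backgrounds. Limma tested the Ink4a/Arf+/+ difference minus the Ink4a/Arf-/- difference, with the assumption that the lone Ink4a/Arf+/+ arrays vary like the Ink4a/Arf-/- replicates. This difference was positive in 36 of the 38 genes, beside 56.6% of all probe sets, with a median of 0.56, beside 0.032 over all probe sets. It passed in 5 genes, all more positive in Ink4a/Arf+/+ cells, beside 0.274% of all probe sets called in that direction. It passed in 0 genes in the other direction, where 0.133% of all probe sets were called and 0 Hox genes had an unadjusted p below 0.05. At an unadjusted p below 0.05, 24 of the 38 genes were more positive, beside 6.5% of all probe sets.

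The 5 genes were Hoxc8, Hoxc10, Hoxb9, Hoxc12 and Hoxc5. Hoxc8 differed by -0.027 ± 0.08 (SE) in Ink4a/Arf-/- cells and by 1.65 in Ink4a/Arf+/+ cells, which gave 1.67 ± 0.13 (SE) between them (limma, adjusted p = 0.0235). For Hoxc10 the same values were -0.20 and 1.42, and 1.61 ± 0.13 between them (limma, adjusted p = 0.0237). For Hoxb9 they were -0.17 and 1.24, and 1.42 ± 0.14 (limma, adjusted p = 0.0351). Hoxc12 at 1.08 ± 0.12 (limma, adjusted p = 0.0473) and Hoxc5 at 1.02 ± 0.12 (limma, adjusted p = 0.0497) lay close to the threshold. Hoxc9 had the largest value of all, 1.72 ± 0.21, but a wider spread between replicates, and did not pass (limma, adjusted p = 0.0520).

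Of these genes Hoxc10, Hoxb9 and Hoxc5 were among the 8 with the largest differences in Ink4a/Arf-/- cells, with the array values given above, all lower and not called. Hoxc8 read 11.38 and 11.42 on the Ezh2 -/- arrays of those cells, against 11.38 and 11.47 on the fx/fx arrays. Hoxc12 read 7.88 and 7.87 on the Ezh2 -/- arrays, against 7.91 and 7.96 on the fx/fx arrays. The Hoxc8 genotypes overlapped, and the Hoxc12 genotypes did not overlap, at a difference of -0.060. Hoxc6 read 9.40 and 9.38 on the Ezh2 -/- arrays, against 9.49 and 9.36 on the fx/fx arrays. Hoxa9 read 8.75 and 8.49, against 8.71 and 8.68, and Hoxa10 read 9.50 and 9.34, against 9.46 and 9.52, in the same 2 genotypes. Hoxd10 read 8.97 and 8.84 on the Ezh2 -/- arrays, against 8.99 and 8.89 on the fx/fx arrays. In these 4 genes the genotypes overlapped.

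Other genes close behind were Hoxd10 at 1.17 ± 0.15 (limma, adjusted p = 0.0544), Hoxb8 at 0.96, Hoxc6 at 1.09, Hoxa10 at 1.12, Hoxa7 at 0.99 and Hoxa9 at 1.23, with adjusted p-values of up to 0.0772. For these genes the 95% intervals of the difference still lay above 0, since the adjustment runs over all probe sets. Hoxa2 at -0.12 and Hoxa3 at -0.16 were the 2 with a negative value. The number called was sensitive to single arrays in the 4 fits that each left out 1 Ink4a/Arf-/- array. It was lowest without Ezh2 -/- replicate 2 and highest without fx/fx replicate 2, and so were the calls over all probe sets. Hoxc8 and Hoxc10 were called in all 4 of these fits. With 1 of the Ezh2 -/- arrays left out, whichever it was, Hoxb9, Hoxc12 and Hoxc5 did not pass, and without fx/fx replicate 1 Hoxc5 did not (limma, adjusted p = 0.0513).

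**Figure D4:**
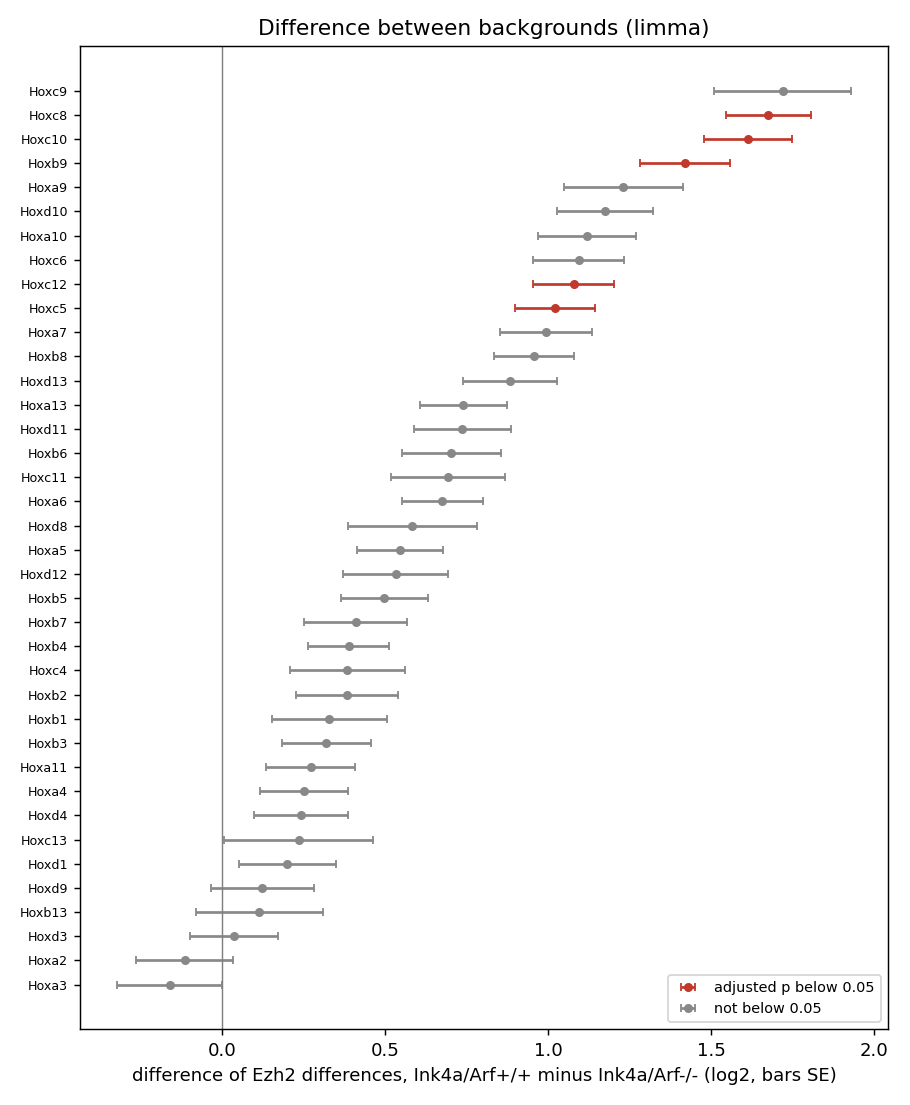
Difference between the backgrounds of the Ezh2 difference (Ink4a/Arf+/+ minus Ink4a/Arf-/-, log2) for the 38 Hox genes, ordered by value, with limma's SE from 2 arrays per genotype in Ink4a/Arf-/- cells and 1 in Ink4a/Arf+/+ cells. Red points are the 5 genes with an adjusted p below 0.05; all but Hoxa2 and Hoxa3 lie above 0, and Hoxc9 is highest at 1.72.

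The genes beside the clusters were read in the same way, with no test against the Hox genes. The 5 nearest measured protein-coding genes on each side of each cluster, 40 in all and chosen by position in RefSeq (GRCm38.p6), had a median of -0.017 in Ink4a/Arf-/- cells and 0.043 in Ink4a/Arf+/+ cells. In Ink4a/Arf-/- cells they lay between -0.23 and 0.40, a wider range than that of the Hox genes, and limma called 0. In Ink4a/Arf+/+ cells they lay between -0.61 and 0.64, 0 of 40 reached 2-fold in either direction, beside 1.11% of all probe sets, and 0 were called between the backgrounds. At the high-numbered end of Hoxa, Evx1, a homeobox gene, differed by 0.15 and at that of Hoxd its relative Evx2 by 0.14. Calcoco1, next to Hoxc13, differed by 0.23 and 0.35 in Ink4a/Arf-/- and Ink4a/Arf+/+ cells, and Smug1, a DNA repair glycosylase next to Hoxc4, by 0.038 and 0.0095. Of the 25 genes measured of a chosen list of cluster neighbours, limma called 0 in Ink4a/Arf-/- cells, and Jazf1, beyond Hoxa13, had the largest difference in both backgrounds, 0.40 and 0.64. Hnrnpa3, beyond Hoxd1, differed by -0.23 and -0.61, and Hnrnpa1, beyond Hoxc4, by -0.14 and -0.55. Each of these neighbours was read by the probe set of its symbol with the highest mean level. Whether that probe set itself lies beside the cluster was not checked.

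Hox clusters also hold microRNAs, short RNAs that pair with messages through bases 2 to 8, the seed. The miR-196 family is known to target Hox messages, among them Hoxb8. The loci of 6 such microRNAs had probe sets, and their mature products fall into families by seed. The 5p product is shown for the miR-196 and miR-10 families, and the 3p product for miR-615. They are shown because their loci lie between the Hox genes described above; seeds are in capitals, and the sequences are RefSeq's (GRCm38.p6).
mmu-miR-196a-5p: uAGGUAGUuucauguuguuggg
mmu-miR-196b-5p: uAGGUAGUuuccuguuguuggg
mmu-miR-10a-5p: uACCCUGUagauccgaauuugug
mmu-miR-10b-5p: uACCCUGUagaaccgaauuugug
mmu-miR-615-3p: uCCGAGCCugggucucccucuu
The first pair shares the seed AGGUAGU and the second pair the seed ACCCUGU, while that of miR-615-3p differs from both. The mature miR-196a-5p comes from Mir196a-1 in the Hoxb cluster (chr11:96265187-96265208, plus strand) and from Mir196a-2 in Hoxc (chr15:102973365-102973386, plus strand), and miR-196b-5p from Mir196b in Hoxa (chr6:52230129-52230150, minus strand).

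No microRNA locus was called or reached 2-fold. Mir196a-1 read 5.30 in Ezh2 -/- cells, against 4.74 in fx/fx cells with intact Ink4a/Arf, and Mir196b read 6.21 and 5.76 in the same order. Mir196a-2, between Hoxc9 and Hoxc10, went the other way from its neighbours, with 4.79 in Ezh2 -/- cells, against 5.19 in fx/fx cells. Mir615 in Hoxc differed by 0.28, Mir10a in Hoxb by 0.29 and Mir10b in Hoxd by 0.18. Mir10a and Mir10b were near the bottom of every array, at most at percentile 4.6 and 2.97 of all probe sets, and Mir196a-1 and Mir196a-2 at most at 20.7 and 18.7, so these differences are those of dim probe sets. In Ink4a/Arf-/- cells the 6 loci lay between -0.064 and 0.12 (limma called 0 of 6). These probe sets read the locus or its precursor, not the mature RNA.

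Polycomb sites in mammals lie mostly in CpG islands, so the start sites were read for the dinucleotide CG. RefSeq windows (GRCm38.p6) of 300 bases, 250 before a gene's start and 50 after it, were at hand for 22 of the 38 genes in 24 windows. CG occurred 4 to 45 times in a Hox window, with a median of 14.5, beside a median of 7 over 32851 windows of all genes. Windows are shown for Hoxa9 and Hoxd10, which were past 2-fold in Ink4a/Arf+/+ cells, for Hoxa2, which was lower there, and for Hoxc4, the Hoxc gene at hand. Each runs 5′ to 3′ on the gene's strand, with CG in capitals.
Hoxa9, chr6:52227321-52227620, minus strand: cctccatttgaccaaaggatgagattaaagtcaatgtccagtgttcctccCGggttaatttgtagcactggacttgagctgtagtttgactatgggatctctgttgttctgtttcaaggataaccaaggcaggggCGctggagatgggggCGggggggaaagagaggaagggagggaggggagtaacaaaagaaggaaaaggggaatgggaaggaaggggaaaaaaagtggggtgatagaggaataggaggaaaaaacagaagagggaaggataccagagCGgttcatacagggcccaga
Hoxd10, chr2:74691641-74691940, plus strand: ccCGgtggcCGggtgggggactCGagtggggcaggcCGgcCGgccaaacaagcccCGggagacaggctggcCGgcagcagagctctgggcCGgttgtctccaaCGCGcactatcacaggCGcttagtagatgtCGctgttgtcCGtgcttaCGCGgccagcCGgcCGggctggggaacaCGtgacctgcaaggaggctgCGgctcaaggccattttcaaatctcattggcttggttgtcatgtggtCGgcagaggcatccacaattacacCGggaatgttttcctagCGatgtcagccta
Hoxa2, chr6:52164782-52165081, minus strand: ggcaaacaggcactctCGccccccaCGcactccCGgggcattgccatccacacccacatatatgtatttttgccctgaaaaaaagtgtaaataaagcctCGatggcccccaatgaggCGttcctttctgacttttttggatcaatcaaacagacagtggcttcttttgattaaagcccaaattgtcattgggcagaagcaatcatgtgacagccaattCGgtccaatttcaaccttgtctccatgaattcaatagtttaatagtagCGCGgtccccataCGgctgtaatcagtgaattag
Hoxc4, chr15:103034145-103034444, plus strand: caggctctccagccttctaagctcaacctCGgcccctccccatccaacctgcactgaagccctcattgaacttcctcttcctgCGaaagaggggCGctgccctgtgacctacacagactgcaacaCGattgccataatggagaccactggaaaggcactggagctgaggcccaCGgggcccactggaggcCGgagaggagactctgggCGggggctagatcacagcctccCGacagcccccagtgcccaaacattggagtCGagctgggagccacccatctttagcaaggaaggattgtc

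Windows were at hand for 3 of the 9 genes past 2-fold, Hoxa9, Hoxa10 and Hoxd10. CG occurred 4 times at Hoxa9, 22 times at Hoxd10, and 21 and 12 times in the 2 windows of Hoxa10. Hoxa2 and Hoxc4 held 9 each, and the highest counts, 45 at Hoxa13 and 37 at Hoxd13, were at genes 1.68-fold and 1.76-fold higher. Of motifs searched on both strands, the TATA box letters TATAAA were in 4 of 24 Hox windows and 13.6% of all windows. The letters CCAAT were in 15 of 24 and 37.4%, and TGATNNAT, the letters of joint PBX and Hox sites, in 4 of 24 and 8.85%. Each window was counted once per motif, and 1 stretch may hold more than 1 motif.

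Hox proteins bind DNA with TALE homeodomain partners, the PBX, MEIS and PKNOX proteins. Of 11 TALE genes limma called 0 in Ink4a/Arf-/- cells, in either direction, and 0 reached 2-fold in Ink4a/Arf+/+ cells. Their medians were -0.021 and 0.033, with Pknox1 at -0.23 (limma, unadjusted p = 0.0192, adjusted p = 0.650) in Ink4a/Arf-/- cells. In Ink4a/Arf+/+ cells Meis1, a partner of Hoxa9 in leukemia, read 8.28 in Ezh2 -/- cells, against 9.12 in fx/fx cells, and Pknox2 read 9.84 and 9.11 in the same order. Meis2 was also lower, at -0.49, so Meis1 and Meis2 went the opposite way from most Hox genes. The 8 ParaHox, Cdx and Evx genes, the nearest relatives of the clusters, lay between -0.22 and 0.069 in Ink4a/Arf-/- cells and at most 0.28 in Ink4a/Arf+/+ cells, where Cdx1 read 7.87 on both arrays and the other 7 were higher, with 0 called and 0 past 2-fold. Cdx4 was at both extremes, but its probe set was dim on every array, at most at percentile 6.60, and Gsx1 differed by 0.21 in Ink4a/Arf+/+ cells.

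Among regulators of Hox transcription, 27 Polycomb genes had medians of -0.0098 in Ink4a/Arf-/- and -0.054 in Ink4a/Arf+/+ cells, with 0 called by limma and 0 past 2-fold. Bmi1, a subunit of Polycomb repressive complex 1, differed by 0.29 and 0.46, and Suz12, a partner of Ezh2, by -0.098 and -0.37. Of 13 Trithorax and H3K27 demethylase genes, which counteract Polycomb, limma called 0. In Ink4a/Arf+/+ cells 12 of these genes were lower, beside 11240 of all 23346 probe sets. The median of the 13 genes there was -0.24, beside 0.000715 over all probe sets. Among them Mll1, the histone H3K4 methyltransferase that maintains Hox transcription, differed by 0.0056 in Ink4a/Arf-/- and -0.44 in Ink4a/Arf+/+ cells, and Psip1, which tethers it to chromatin, by -0.36 and -0.43. Of 18 retinoic acid pathway genes, which switch on Hox genes in the embryo, 1 was past 2-fold: Aldh1a1, which makes retinoic acid, at -0.020 and 3.03 (between backgrounds, limma, adjusted p = 0.0141). The Aldh1a1 probe set was dim in Ink4a/Arf-/- cells, at percentiles 20.0 to 23.0 of all probe sets. Cyp26b1, which breaks down retinoic acid, differed by 0.042 and 0.86. In Ink4a/Arf-/- cells Aldh1a2 at 0.59 and Aldh1a3 at 0.42, 2 more enzymes of retinoic acid synthesis, had unadjusted p-values below 0.05 and were not called.

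Of 28 positional transcription factors outside the clusters, 12 were higher and 16 lower in Ink4a/Arf+/+ cells, with a median of -0.078, and limma called 0 in Ink4a/Arf-/- cells. Meox2, a homeobox gene of limb muscle and vessels, was the 1 past 2-fold, with 8.49 in Ezh2 -/- cells, against 6.86 in fx/fx cells. It read 8.35 and 8.35 on the Ezh2 -/- arrays of Ink4a/Arf-/- cells, against 8.24 and 8.25 on the fx/fx arrays (difference between backgrounds 1.53, limma, adjusted p = 0.0237). The forelimb gene Tbx5 differed by -0.12 and 0.46, Lhx9 by 0.17 and -0.85, and Foxd1 by 0.13 and 0.72. These factors went both ways in Ink4a/Arf+/+ cells.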

How the data were processed

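The labelling started from 150 ng of total RNA with Affymetrix whole-transcript kits, per the labels. For each Ink4a/Arf background the authors deposited 1 table of log2 levels per probe set with their own fold changes and p-values. Limma was used, per the submitters' processing notes, with no version, and the sources used here do not give the normalization steps. The deposited series matrix holds the same log2 levels. The authors' deposited p-values were used only as an alternative in Ink4a/Arf-/- cells.

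Here all 23346 probe sets on the 6 arrays were fitted in R 4.3.3 with limma 3.58.1, using 1 mean per group, and only the 4 Ink4a/Arf-/- arrays inform the spread (2 residual degrees of freedom). P-values are two-sided and adjusted with Benjamini-Hochberg over all probe sets, and 95% intervals are unadjusted. The fit was tested on simulated data in which all arrays shared the same spread for a probe set. Those data therefore cannot check that the lone Ink4a/Arf+/+ arrays vary like the Ink4a/Arf-/- replicates. The number of arrays limits the precision. Array values, at least for the background concerned, were given for Hox genes chosen by a rule. These were the 8 with the largest difference in each background, those called by a test and the smallest of each cluster. From each gene list up to 3 with the largest difference were named. Others were named by position or role after their values were seen. The members and lists were chosen with earlier results of these data known. A further gene that the name pattern matches is not reported here. The list of gene neighbours by RefSeq position was added after the data were seen. Sequences come from RefSeq tables. Alternatives were quantile normalization, centring, the series matrix, a filter on dim probe sets, the mean of probe sets, each array left out, the replicate block, a variance trend, the authors' p-values, and other thresholds.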

Additional observations from a re-analysis of the deposited data

Results flagged for a closer look

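The difference with Ezh2 differed between the backgrounds in 5 Hox genes by limma's test over all probe sets, each more positive in Ink4a/Arf+/+ cells, beside 0.274% of all probe sets called in that direction and 0.407% in either. The values (Ink4a/Arf+/+ minus Ink4a/Arf-/-, log2) were 1.67 for Hoxc8, 1.61 for Hoxc10, 1.42 for Hoxb9, 1.08 for Hoxc12 and 1.02 for Hoxc5. Hoxc8 and Hoxc10 were called in each of the 4 fits that left out 1 array. Hoxb9, Hoxc12 and Hoxc5 were each called in some of these fits and not in others. The test rests on 1 array per genotype in Ink4a/Arf+/+ cells and assumes that those arrays vary like the Ink4a/Arf-/- replicates.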

How the results depend on the processing

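In Ink4a/Arf-/- cells 0 Hox genes were called at the adjusted threshold under each alternative run. In the main fit 1 had an unadjusted p below 0.05, and only for this fit is the share of all probe sets at that threshold given. The unadjusted count was 2 with quantile normalization and 3 without the dimmest 30% of probe sets. It was 0 with array medians subtracted, the replicate block or the authors' p-values, and it rose or fell with the array left out. With the replicate block 0 were called as well, and same-numbered arrays deviated together with a correlation of only 0.026. The titles give only the replicate number, and whether same-numbered arrays share more was not tested. Leaving out 1 array gave medians between -0.11 and -0.049 and between 24 and 35 genes lower, and Hoxc9 lay between -0.30 and 0.0026. Over all probe sets 0 were called in these cells, against 48 with a variance trend, 4 without the dimmest 30% of probe sets of that table and up to 13 with 1 array left out. In Ink4a/Arf+/+ cells 8 genes were past 2-fold with quantile normalization or array medians subtracted, 9 with the other values and filters, and 15 were past 1.5-fold. With 1 array per genotype none could be left out there. The number of Hox genes that differed between backgrounds, 5, was 13 with quantile normalization, 12 with array medians subtracted, 15 without the dimmest 30% of probe sets, 12 with the mean of a gene's probe sets and 16 with a variance trend, and each of these settings called the same 5 genes among them. With 1 array left out it lay between 2 and 10. Over all probe sets the calls between backgrounds were 95, against 268, 228, 334, 159 and 627 in the same order of settings and 44 to 245 with 1 array left out. The causes were not tested.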
